A study of Mus musculus with 2 samples.

Results

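The nuclear factor I (NFI) family comprises 4 mouse genes, Nfia, Nfib, Nfic and Nfix. All 4 were measured here, out of 19938 genes with a probe set annotated to a single symbol. They were taken as the probe sets whose platform annotation gives a single symbol of the family, which gave 6 probe sets, 2 each for Nfia and Nfib and 1 each for Nfic and Nfix. No probe set annotated to several genes included a family member. The study used neural precursor cells from the forebrain of Jcl:ICR mouse embryos at E11.5. The cells received either a retrovirus carrying HMGN1, a chromatin protein that binds nucleosomes, or a control retrovirus. All cells had been grown with FGF2 and EGF, were replated 3 days after infection and spent 1 day without both factors before total RNA was taken, and each virus has 1 array. The labels used here give neither the promoter of the virus nor the share of cells infected.

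NFI proteins bind DNA as dimers, as homodimers or with another family member, through a conserved N-terminal domain. In the embryonic brain and spinal cord Nfia and Nfib switch on as precursors become able to form glia, and in the mouse they are needed for timely glial differentiation, while Nfix also acts in precursor maturation. The competence of precursors to respond to gliogenic signals is linked to NFI binding at astrocyte genes such as Gfap, where loss of DNA methylation accompanies it. The comparison therefore asks whether RNA of this family differed between precursors with and without extra HMGN1.

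RNA of the 4 NFI genes differed little between the viruses, by at most 6.7% of the control virus level on any of the 6 probe sets. Nfia and Nfib were slightly higher and Nfic and Nfix slightly lower, and none differed by the fixed size of 0.32 on the log2 scale. All differences below are log2(intensity + 16) with the HMGN1 virus minus the same with the control virus. With 1 array per virus there is no replicate spread, so no test was run, and the differences describe these 2 arrays. Among 11325 detected genes, 0.494% were higher by at least 0.32 and 0.521% lower by at least 0.32, and the family contributed 0 to either count. Detected means a mean signal of both arrays at or above the 95th percentile of the olfactory receptor probe sets, an intensity of 85.9, and all 4 members passed. The median difference of the family was 0.0036, against 0.027 for all detected genes, of which 60.1% were higher at any size and 38.4% lower.

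Nfia, the member most closely tied to the onset of astrocyte formation, read 2173 with the HMGN1 virus and 2037 with the control virus on its brighter probe set. Its dimmer probe set read 1032 with the HMGN1 virus and 976 with the control virus. The log2 differences were 0.092 and 0.079, a gap of 0.013 between the probe sets. Both thus gave nearly the same small difference, 6.7% and 5.7% higher with the HMGN1 virus. The brighter one lay at the 74.3 percentile of the differences of all detected genes.

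Nfib, which acts with Nfia in glial and cortical development, read 3803 with the HMGN1 virus and 3694 with the control virus on its brighter probe set. The dimmer probe set read 925 with the HMGN1 virus and 886 with the control virus. Their log2 differences were 0.042 and 0.061, or 2.9% and 4.4% higher with the HMGN1 virus. The brighter one lay at the 55.9 percentile, close to the middle of all detected genes.

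Nfix, a family member of later precursors and adult stem cells, read 1367 with the HMGN1 virus and 1429 with the control virus. This was the lowest of the 4 differences, -0.064, a level 4.4% lower with the HMGN1 virus and at the 19.5 percentile of detected genes. Nfic, known best from tooth root development in mice, read 291 with the HMGN1 virus and 299 with the control virus. Its difference was -0.035, or 2.5% lower with the HMGN1 virus, at the 27.3 percentile. Nfix and Nfic each rest on a single probe set, so no second probe set of theirs can be set beside the value.

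**Figure D1:**
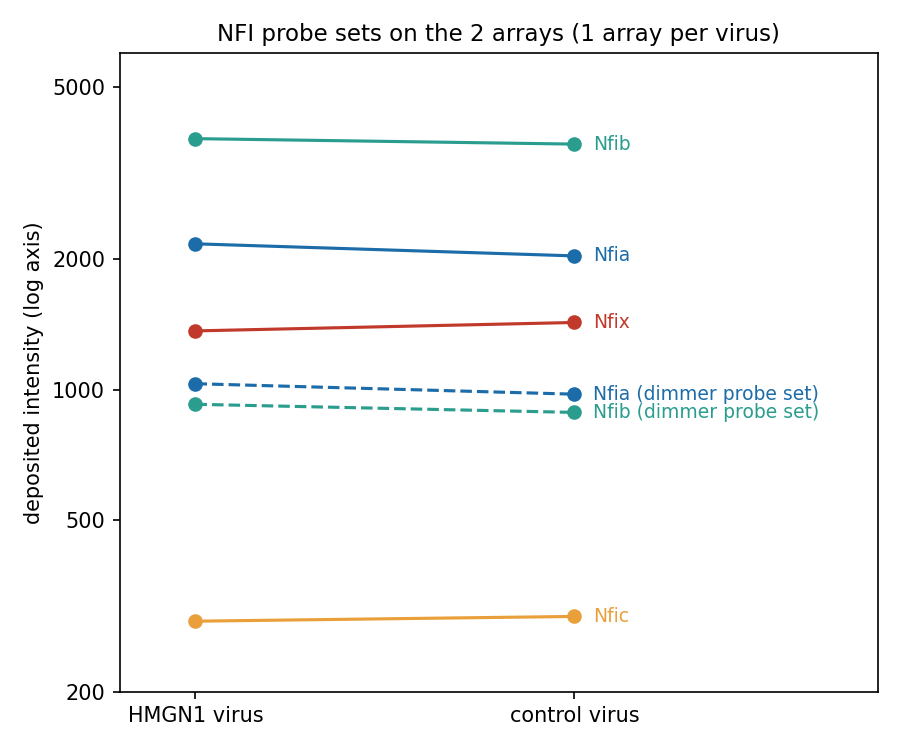
Deposited intensity of the 6 NFI probe sets (log axis) on the HMGN1 virus array (left) and the control virus array (right), with a line joining the points of each probe set and dashed lines for the dimmer probe set of a gene. The lines are almost level: Nfia and Nfib slope up towards the HMGN1 virus (2173 against 2037 for Nfia) and Nfic and Nfix slope down (1367 against 1429 for Nfix).

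The spread between probe sets of the same gene gives a scale for these values. Probe sets of the same gene scattered around their mean difference with an SD of 0.0891 (683 genes with at least 2 detected probe sets), and detected genes as a whole with an SD of 0.111. The Nfia difference was 1.03 times the SD between probe sets, and the brighter Nfib, the Nfic and the Nfix probe sets were at 0.469, 0.389 and 0.717 times it. Any shift common to an array or a culture is missing from this SD. Nfia, Nfib and Nfix lay in the brightest decile of detected genes, where the median difference was 0.033 and the SD 0.0904. The distance between the highest and the lowest member, Nfia and Nfix, was 0.16. Neighbours in the order of differences were 0.050 apart for Nfia and Nfib, 0.076 for Nfib and Nfic and 0.029 for Nfic and Nfix, each below the SD between probe sets. Intensities of different probe sets depend on their probes, so the members' levels were not ranked against each other.

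**Figure D2:**
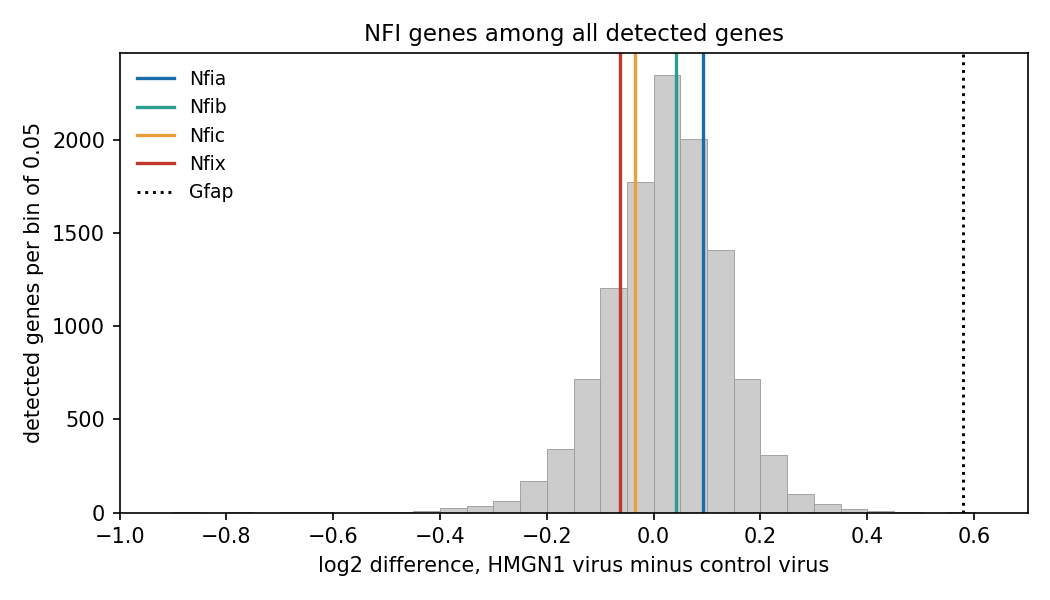
Histogram of the log2 difference, HMGN1 virus minus control virus, over 11325 detected genes (bins of 0.05), with a line for each NFI gene and a dotted line for Gfap. The 4 NFI lines, from -0.064 to 0.092, stand in the middle of the distribution, and Gfap stands at 0.58 near its upper end.

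Differences in these arrays were related weakly to gene span, the length of a gene on the chromosome with introns included. Across 10883 detected protein-coding genes, which share the same 2 arrays and are not independent, Spearman's rho of difference with span was 0.23. The NFI genes differ widely in span, at 541 kb for Nfia, 217 kb for Nfib, 96.5 kb for Nfix and 35.7 kb for Nfic in the RefSeq annotation. The decile of genes with the longest span, which holds Nfia and Nfib, had a median difference of 0.053. Nfia was 0.040 above that median and Nfib was at -0.011 relative to it. The decile that holds Nfix had a median of 0.055 and that of Nfic a median of 0.049, and Nfix lay at -0.12 and Nfic at -0.084 relative to them. With the span trend removed by a smooth curve, Nfia was at 0.034 and Nfib at -0.011, and the family median was -0.044. Whether the trend with span accounts for the Nfia and Nfib differences was not tested.

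**Figure D3:**
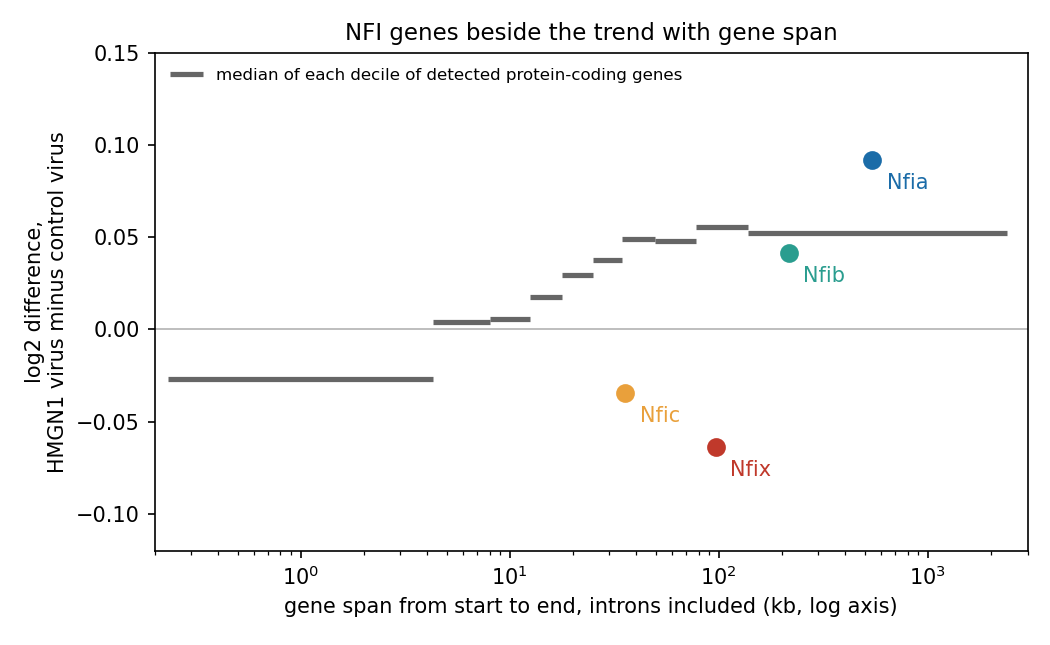
Log2 difference, HMGN1 virus minus control virus, against gene span in kb (log axis); points are the 4 NFI genes and bars the median of each decile of 10883 detected protein-coding genes. The bars are at -0.027 in the decile of shortest genes and between 0.048 and 0.055 in the 4 deciles of longest genes; Nfib lies by its bar, Nfia (0.092) above it, and Nfic (-0.035) and Nfix (-0.064) lie below theirs.

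Transcripts that overlap NFI genes in the annotation went partly the other way, mostly on low signal. The noncoding E130114P18Rik, which overlaps Nfia, read 106 with the HMGN1 virus and 110 with the control virus, a difference of -0.052. The RNA 2310067E19Rik, which overlaps Nfib, read 219 with the HMGN1 virus and 258 with the control virus, a difference of -0.22 at the 1.9 percentile of detected genes. It was the lowest value among the genes that overlap or flank the family, while both Nfib probe sets were slightly higher. At the Nfix locus the overlapping noncoding G430095P16Rik differed by -0.079, close to Nfix itself, and the transcription factor gene Lyl1 by 0.090. The flanking genes Trmt1, which encodes a transfer RNA methyltransferase, and Dand5, a secreted antagonist of Nodal, were at -0.088 and 0. Dand5 carries the same value, 93.2, in both columns. The overlapping E130114P18Rik, Lyl1 and G430095P16Rik read from 95.1 to 126, not far above the floor of 85.9. Their differences were near or below the SD between probe sets, 0.0891. Of the genes flanking Nfic, the RNA-binding protein gene Celf5 differed by -0.13 and Smim24 by -0.030. Apart from E130114P18Rik and 2310067E19Rik, the genes that flank or overlap Nfia and Nfib were not analysed here.

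Genes listed as regulators or partners of Nfia differed little as well, between -0.031 and 0.11. The list holds Sox9, which induces Nfia in the spinal cord, the POU factor Pou3f2, the receptor Notch1 and its nuclear partner Rbpj. It also holds the cortical factor Lhx2, and Zbtb20, which acts with Sox9 and Nfia in astrocyte formation. All 6 were detected, with 4 higher and 2 lower, 0 reached 0.32 either way, and their median was 0.020. Over all detected genes 60.1% were higher and 38.4% lower, and the median was 0.027. Of those, 0.494% were higher and 0.521% lower by at least 0.32. Sox9 read 1948 with the HMGN1 virus and 1991 with the control virus, a difference of -0.031. Rbpj was highest at 0.11 (660 with the HMGN1 virus and 612 with the control virus), but its second probe set, under the floor, gave -0.26. Pou3f2 likewise gave 0.015 and -0.093 on its 2 probe sets, so its sign depends on the probe set. Notch1 differed by -0.025 and Lhx2 by 0.024. Zbtb20 gave 0.060 on its brighter probe set and 0.0095 on its dimmer one.

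Glial genes that NFI proteins are known to activate were led by Gfap and, like detected genes in general, mostly higher with the HMGN1 virus. The floor was passed by 7 of the 8 genes, with 5 higher, 2 lower and a median difference of 0.15, to be read beside the 60.1% higher and the median of 0.027 over all detected genes. The median was 0.097 with no filter on dim signal and 0.0997 with the gene span trend removed. Gfap, the intermediate filament of astrocytes, read 615 with the HMGN1 virus and 406 with the control virus, a difference of 0.58, and it alone of the list passed 0.32. The difference of Gfap exceeded that of Nfia by 0.49. Zcchc24, Mmd2 and Apcdd1 are joint targets of Sox9 and NFIA in the mouse spinal cord. Zcchc24 read 304 with the HMGN1 virus and 261 with the control virus (0.21). Mmd2 read 1252 with the HMGN1 virus and 1094 with the control virus (0.19). Both differences lay within the middle 95% of all detected genes, from -0.21 to 0.23. Apcdd1, an inhibitor of Wnt signalling, was close to its control level, at 581 with the HMGN1 virus and 588 with the control virus (-0.016).

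The glutamate transporter Slc1a3 read 1005 with the HMGN1 virus and 904 with the control virus, a difference of 0.15. Aldh1l1, a folate enzyme of astrocytes, differed by 0.044. Fabp7, the fatty acid binding protein of radial glia, differed by -0.019 (10995 with the HMGN1 virus and 11137 with the control virus). S100b, a calcium-binding protein of astrocytes, was under the detection floor, with 82.2 with the HMGN1 virus and 81.1 with the control virus. In these bulk cultures, a different number of cells of a type and a different amount of RNA per cell cannot be told apart. Of 6 astrocyte markers 5 were detected and 5 were higher, beside 60.1% of all detected genes, with a median of 0.28. Gfap and the water channel gene Aqp4 passed 0.32, and the gap junction gene Gja1 was at 0.28. The summed intensity of all 6 was 2650 with the HMGN1 virus and 2202 with the control virus. This marker list shares Gfap, Slc1a3, Aldh1l1 and S100b with the NFI target list, and its part in the result was not tested.

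Genes listed here as repressed by NFI proteins differed by at most 0.15. The floor was passed by 4 of the 5 genes, with 3 higher and 1 lower and a median of 0.054, beside 60.1% higher and a median of 0.027 over all detected genes. The median was 0.019 with no filter on dim signal and 0.089 with a stricter floor, the 99th percentile of the olfactory receptor probe sets. Ezh2, the histone methyltransferase of Polycomb that Nfib represses in the mouse, read 1764 with the HMGN1 virus and 1588 with the control virus, a difference of 0.15. Bbx, which Nfix represses, was at 0.089, and Hes1, the Notch effector, at 0.019. Sox9 is on this list too, as a gene that Nfix represses. Insc, a spindle orientation gene, was under the floor at -0.093. Of the medians, Insc enters only the one with no filter. Whether NFI proteins repress or activate Insc was not checked here.

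Neuronal genes that NFI proteins switch on in mouse cerebellar granule neurons stayed near 0. Their median was -0.0057 over 4 detected genes of 5, with 1 higher and 3 lower. This is to be read beside 60.1% higher, 38.4% lower and a median of 0.027 over all detected genes. The adhesion genes Cntn2 and Cdh2 differed by -0.030 and -0.0054 and the ephrin Efnb1 by -0.0061. Wnt7a was apart at 0.18, with 183 with the HMGN1 virus and 160 with the control virus. The GABA receptor subunit gene Gabra6 was under the floor.

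Other genes that time the passage to glial competence had 10 of 15 members detected, 8 higher and 2 lower, 0 past 0.32 either way, and a median of 0.076, beside the 60.1% higher and 0.027 of all detected genes. The median was 0.016 with no filter and 0.11 with the stricter floor. Nr2f1 and Nr2f2, nuclear receptors needed for precursors to become gliogenic, were at 0.0067 and 0.11. The early precursor genes on the list went both ways. Mycn (0.17), Igf2bp1 (0.14), Igf2bp3 (0.11) and the chromatin gene Hmga2 (0.042) were higher, and Ezh2 is given above. The proneural gene Neurog2 differed by 0.0067, Hmgb2 by -0.013 on its brightest probe set (-0.072 to 0.019 on the others, which may also catch near-identical copies) and Trim71, an early developmental target of let-7 microRNAs, by -0.0030. Neurog1 (0.016), Lin28a (-0.14) and Lin28b (-0.011) were under the floor, and Hmga1 and Igf2bp2 were not analysed here.

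**Figure D4:**
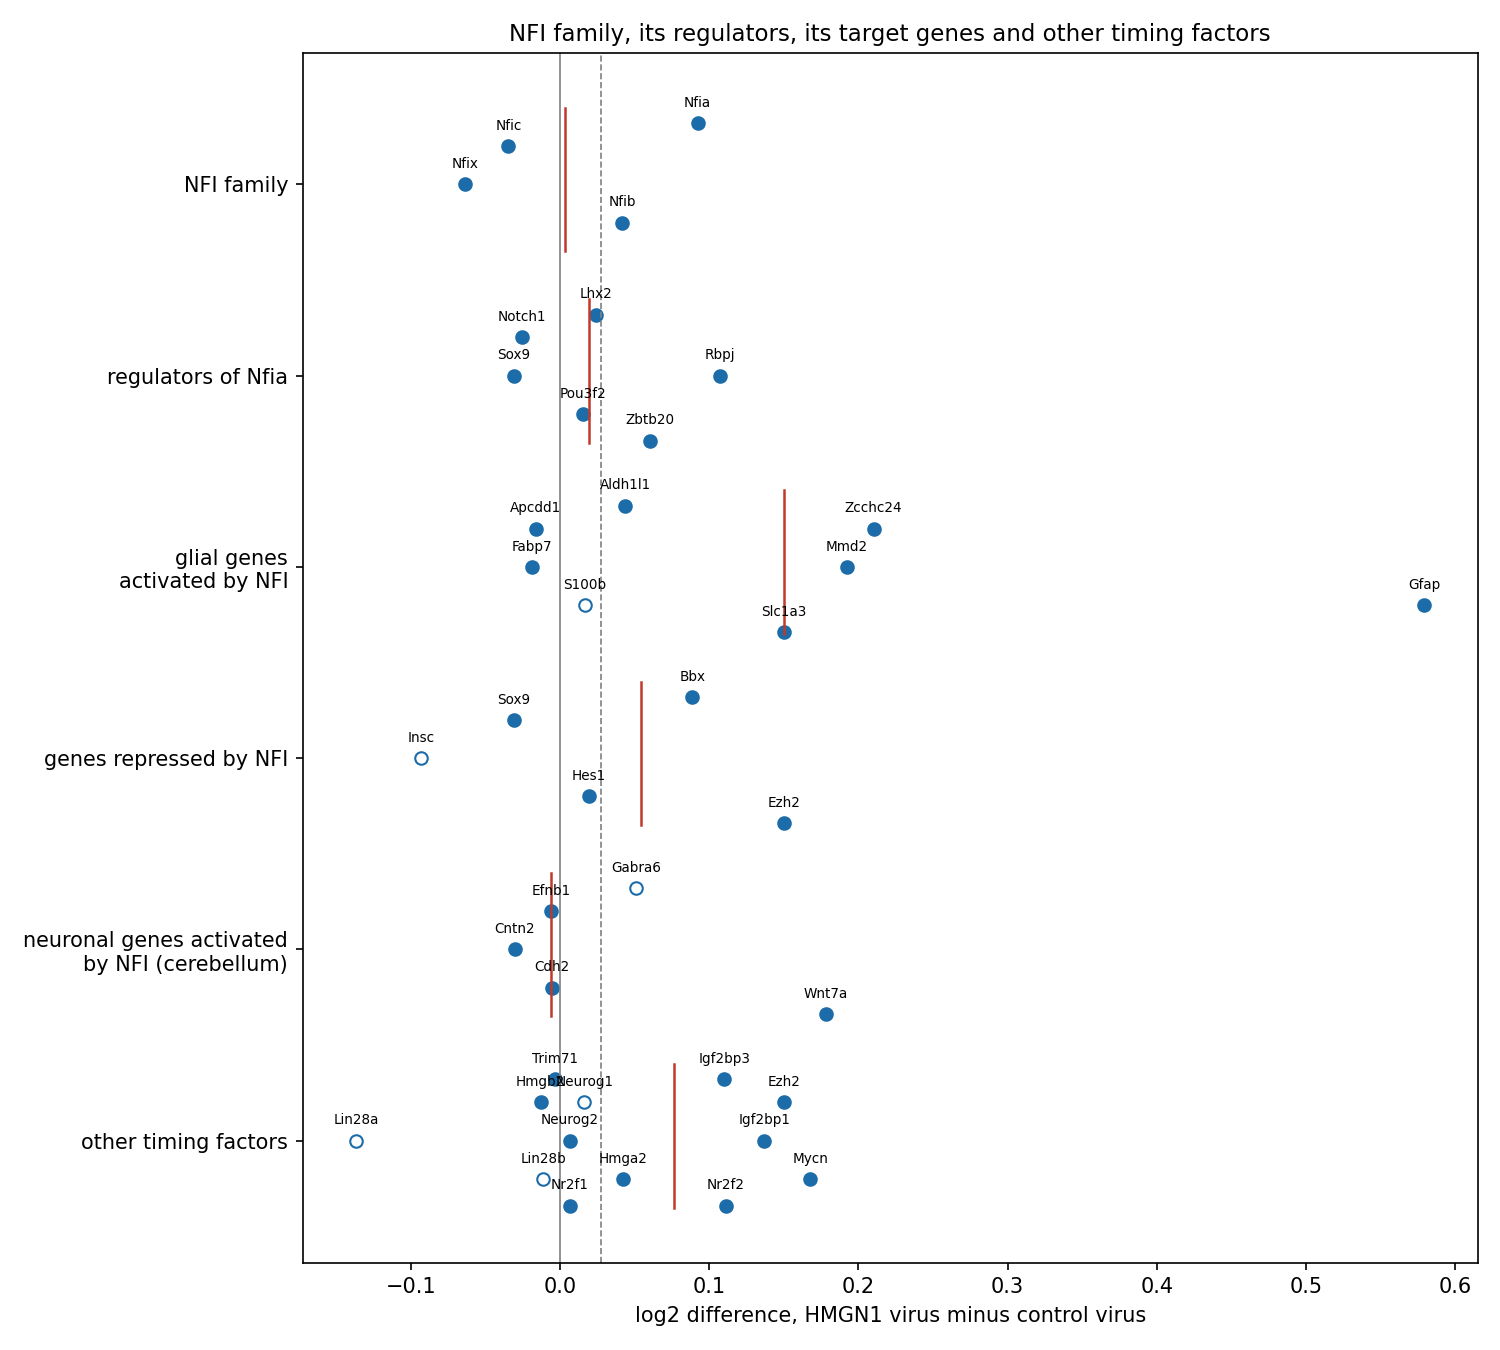
Log2 difference, HMGN1 virus minus control virus, of each listed gene by its brightest probe set; filled points are detected genes, open points genes under the floor, red bars the list medians and the dashed line the median of all detected genes (0.027). The NFI genes and the genes listed as regulators of Nfia lie around 0. Gfap (0.58), Zcchc24 (0.21) and Mmd2 (0.19) lead the glial genes activated by NFI, whose median is 0.15.

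The promoter windows of these genes were read for NFI motifs, to show what stands next to the starts of genes that differed and of genes that did not. Each window is the 250 bases before an annotated start, from RefSeq on build GRCm38.p6. The full dimer motif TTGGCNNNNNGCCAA occurred in 0.0365% of 32851 windows of this length and in none of the listed genes' windows. The single-arm core TTGGC, searched on both strands (GCCAA on the other), occurred in 41.5% of all windows, so its presence is common. Among the glial genes activated by NFI, 4 of 7 with a window held it. The neuronal genes had it in 3 of 4, and the genes listed as repressed in 2 of 2 (Ezh2 and Insc). Of the listed regulators or partners of Nfia 2 of 5 held it, and of the other timing factors 6 of 14. In the family, 1 of the 3 genes with a window (Nfix) held it, in 2 of the family's 6 windows. A match is only a run of letters in this window and shows no binding.

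The windows printed here are those of Nfia and Nfix, the ends of the family's order, then Gfap, Zcchc24 and Mmd2, the highest of the target list, and Fabp7, a target close to 0. Capitals mark the core motif on either strand, and all are written 5′ to 3′ towards the start. Nfia lies at chr4:97581693-97581942 on the plus strand, and Nfix at chr8:84775829-84776078 on the minus strand, the window of its 4 that was listed first among those with the motif. Gfap lies at chr11:102897201-102897450 (minus), Zcchc24 at chr14:25769073-25769322 (minus), Mmd2 at chr5:142608753-142609002 (minus) and Fabp7 at chr10:57784673-57784922 (plus).
Nfia: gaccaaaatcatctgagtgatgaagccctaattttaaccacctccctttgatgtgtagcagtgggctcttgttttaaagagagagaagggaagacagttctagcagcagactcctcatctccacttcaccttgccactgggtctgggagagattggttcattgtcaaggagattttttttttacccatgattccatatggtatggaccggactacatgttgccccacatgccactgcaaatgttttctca
Nfix: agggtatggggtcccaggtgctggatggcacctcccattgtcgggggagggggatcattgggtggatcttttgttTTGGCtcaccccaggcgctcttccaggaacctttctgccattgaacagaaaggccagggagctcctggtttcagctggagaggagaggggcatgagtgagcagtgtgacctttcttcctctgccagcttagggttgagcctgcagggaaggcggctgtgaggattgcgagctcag
Gfap: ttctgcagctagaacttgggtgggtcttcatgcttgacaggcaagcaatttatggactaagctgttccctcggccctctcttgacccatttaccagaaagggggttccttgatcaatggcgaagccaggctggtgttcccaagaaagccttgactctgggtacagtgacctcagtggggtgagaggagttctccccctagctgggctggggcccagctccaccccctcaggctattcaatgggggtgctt
Zcchc24: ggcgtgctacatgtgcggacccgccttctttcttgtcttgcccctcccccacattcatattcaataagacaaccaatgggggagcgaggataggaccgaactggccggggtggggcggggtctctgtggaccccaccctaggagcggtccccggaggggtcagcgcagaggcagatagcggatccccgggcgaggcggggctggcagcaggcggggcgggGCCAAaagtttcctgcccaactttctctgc
Mmd2: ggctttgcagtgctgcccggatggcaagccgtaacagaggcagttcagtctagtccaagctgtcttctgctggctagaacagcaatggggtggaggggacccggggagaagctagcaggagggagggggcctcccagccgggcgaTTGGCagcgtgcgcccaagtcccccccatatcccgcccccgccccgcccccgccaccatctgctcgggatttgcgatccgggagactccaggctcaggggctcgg
Fabp7: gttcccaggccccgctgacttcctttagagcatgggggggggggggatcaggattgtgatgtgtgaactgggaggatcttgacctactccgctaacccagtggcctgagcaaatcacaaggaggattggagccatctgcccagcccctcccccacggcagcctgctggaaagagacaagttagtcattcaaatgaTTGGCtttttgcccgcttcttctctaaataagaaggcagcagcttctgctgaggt
The Gfap window holds no core motif, although Gfap had the highest difference of the listed genes. Zcchc24 (0.21), Mmd2 (0.19) and Fabp7 (-0.019) each hold a single match, which begins 30, 105 and 55 bases before the start. These windows were picked by the differences of their genes, so they cannot show whether a match goes with a difference.

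A microRNA also acts on this family: in mouse neural stem cells miR-153 represses Nfia and Nfib and holds back gliogenic competence. Its mature strand is shown with its seed, bases 2 to 8, in capitals, since the seed sets which RNAs it can pair with.
mmu-miR-153-3p: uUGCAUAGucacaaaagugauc
The probe set of its gene Mir153 was under the floor, at 30.4 with the HMGN1 virus and 28.5 with the control virus (0.058), so its level could not be told from background, and the array does not measure the mature strand apart from its precursor.

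Hmgn1, the gene carried by the virus, read 348 with the HMGN1 virus and 230 with the control virus, 1.52-fold without an offset; whether its probes lie in the part the virus carries is not known here. Markers of the labelled cells, neural precursors, were present, with 7 of 7 detected (median 0.013, Prom1 lowest at -0.24). Also detected were 7 of 7 neuron markers (median 0.087) and 6 of 6 markers of the oligodendrocyte lineage (median 0.075). The neuron markers ran from -0.17 (Tubb3) to 0.27 (Syt1), and the oligodendrocyte lineage markers from -0.16 (Olig2) to 0.33 (Gpr17), with the myelin gene Mbp at 0.28. Their part in the values of the glial genes was not tested. Of the markers of cell types that could be mixed in, 0 of 5 endothelial, 1 of 5 microglial and 4 of 5 mesenchymal genes were detected, and the 1 erythroid gene analysed was under the floor. Summed over the mesenchymal markers the intensity was 560 with the HMGN1 virus and 576 with the control virus.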

How the data were processed

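RNA was measured on 1-colour whole-transcript arrays, 1 per virus, with biotin labelling per the labels' protocols. The authors' deposited values are linear intensities of 28944 probe sets; background correction, normalization and summarisation are not given in the sources used here. Intensities ran from 3.56 to 18892 with the HMGN1 virus and from 3.08 to 18209 with the control virus, with medians of 98.8 and 101. Symbols are those of GEO's platform annotation (21789 probe sets with 1 symbol, 1621 with several, 5534 unnamed here). Each of 19938 genes took its brightest probe set; the detection floor used 1035 olfactory receptor probe sets. The offset of 16 understates changes of dim genes. Gene spans, neighbours and promoters came from RefSeq tables on GRCm38.p6.

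The members and lists were chosen with earlier results of these data known. The named genes are the 4 NFI genes, every gene of 5 lists, Hmgn1, and the genes that flank the family; the overlapping genes and Mir153 were added after values were seen. With 2 arrays a gene has a single difference, so no gene was named for a like pattern. The number of arrays limits the precision. The code was tested on simulated data. Python 3.11.15, pandas 2.3.3, numpy 2.4.6 and statsmodels 0.14.6 were used. Alternatives were quantile normalization, centring, removal of trends with intensity and gene span (lowess, span 0.3), offsets of 1 and 64, the mean of probe sets, other floors and a 1.5-fold size.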

Additional observations from a re-analysis of the deposited data

How the results depend on the processing

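The counts of NFI genes higher or lower by the fixed size were 0 under all 10 alternatives. This size was 0.32 on the log2 scale, except in the alternative with a 1.5-fold size. That larger size and the other floors could not have raised the counts from 0. Over all detected genes 0.494% were higher and 0.521% lower by at least 0.32, and a count of 0 among 4 genes is close to those shares. The family median ran from -0.044 to 0.0084 and was below 0 after centring (-0.024), with the intensity trend removed (-0.018) and with the gene span trend removed (-0.044). Nfia ran from 0.034 to 0.099, Nfic from -0.078 to -0.030 and Nfix from -0.12 to -0.062, each with the same sign under the 7 alternatives run for single genes; Nfib ran from -0.011 to 0.076 and was below 0 only with the gene span trend removed. The median of the glial genes activated by NFI ran from 0.097 to 0.15 and Gfap from 0.53 to 0.60. The listed regulators or partners of Nfia changed sign under 4 of 9 alternatives (-0.028 to 0.020), and the other lists kept theirs. The genes listed as repressed by NFI ran from 0.019 to 0.089 and the other timing factors from 0.016 to 0.11. The neuronal genes ran from -0.040 to -0.0053. None of the log2 values moved by as much as the SD between probe sets, 0.0891. That SD describes single probe sets and is not the spread of a median over several genes. No paired analysis was possible because each virus has 1 array, which also leaves no replicate to leave out. Low signal limits Insc, S100b, Gabra6, Neurog1, Lin28a, Lin28b and Mir153.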
